A study of Mus musculus with 30 samples.

Results

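The genes described here are 7 members of the aryl hydrocarbon receptor (AHR) pathway, taken by name from the 55401 genes of each count table: Ahr, Arnt, Ahrr, Tiparp, Cyp1a1, Cyp1b1 and Nqo1. They were counted in nuclear RNA of mouse embryonic stem (ES) cells in 30 libraries, 2 for each of 15 groups, and the 4 tables of counts were scaled separately. The study asks what rapid loss of SRCAP, the ATPase of a chromatin remodeller that deposits the histone variant H2A.Z, does to transcription. Loss is triggered by indole-3-acetic acid (IAA), the plant hormone auxin, which makes the plant receptor OsTir1 mark proteins that carry an auxin-inducible degron (AID).

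CGR8 cells are the parental mouse ES line and carry neither the degron nor OsTir1. They were either untreated or given 500 µM IAA for 4 h. SYAT cells come from 1 clone of CGR8 in which SRCAP is tagged homozygously with YPet and AID. That clone was given OsTir1 under an EF1α promoter by a lentiviral vector, then selected and sorted, with no recloning described. Their controls were kept in auxinole, an inhibitor of OsTir1, and the treated groups received 500 µM IAA in its place for 2, 4, 6 or 8 h. SYAT cells that also carry a mitotic mCherry degron reporter were sorted into early G1 (EG1) and late G1 (LG1), each as control and after 1 h of IAA. The wtSRCAP and cdSRCAP lines, 1 clone each, are SYAT cells with a doxycycline-inducible SRCAP-mCherry transgene, wild type or catalytically dead. Their transgene was switched on by doxycycline (1 µg/mL over 24 h), and cells were sorted for mCherry, with and without 4 h of IAA. In all SYAT-derived cells the control and IAA groups differ in auxinole as well as in IAA, so the effects of auxinole, IAA and loss of SRCAP cannot be told apart there. All cells grew in serum with LIF. The sources call the replicates biological duplicates.

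AHR is a ligand-activated transcription factor of the bHLH-PAS family. Without ligand it waits in the cytosol with HSP90 and co-chaperones. Dioxins, polycyclic hydrocarbons and many indoles derived from tryptophan send it to the nucleus, where it pairs with ARNT and binds the core letters GCGTG. Its best known targets are the cytochromes P450 Cyp1a1 and Cyp1b1, which oxidise many of the ligands, and the feedback repressors Ahrr and Tiparp. Nqo1, a quinone reductase, answers both to AHR and to the antioxidant factor NRF2. IAA is itself an indole, so the question put to these genes is whether IAA moved them, first in CGR8 cells, where there is no degron, and then in the degron lines.

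The 250 bases before the RefSeq start are shown for the genes that moved most and for Nqo1. Sequence further upstream, where AHR may also bind, was not examined. Sequences are from RefSeq (GRCm38.p6), written on the gene's own strand, with GCGTG or its reverse complement CACGC in capitals.
Cyp1a1, chr9:57697363-57697612, plus strand: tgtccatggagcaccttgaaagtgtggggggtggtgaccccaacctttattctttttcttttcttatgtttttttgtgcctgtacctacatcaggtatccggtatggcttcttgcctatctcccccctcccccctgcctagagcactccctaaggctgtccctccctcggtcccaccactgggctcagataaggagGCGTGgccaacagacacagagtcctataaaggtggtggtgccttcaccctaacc
Cyp1b1, chr17:79715062-79715311, minus strand: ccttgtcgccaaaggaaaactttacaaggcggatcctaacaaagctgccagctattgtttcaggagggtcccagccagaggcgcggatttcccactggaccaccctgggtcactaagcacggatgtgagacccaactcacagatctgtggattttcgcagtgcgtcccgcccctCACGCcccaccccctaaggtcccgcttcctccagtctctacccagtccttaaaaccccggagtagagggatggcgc
Ahrr, chr13:74292332-74292581, minus strand: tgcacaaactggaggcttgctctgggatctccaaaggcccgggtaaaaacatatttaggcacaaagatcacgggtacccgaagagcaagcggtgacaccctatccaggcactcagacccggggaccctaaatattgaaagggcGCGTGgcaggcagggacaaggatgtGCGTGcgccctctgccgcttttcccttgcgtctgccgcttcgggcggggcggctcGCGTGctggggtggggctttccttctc
Nqo1, chr8:107403206-107403455, minus strand: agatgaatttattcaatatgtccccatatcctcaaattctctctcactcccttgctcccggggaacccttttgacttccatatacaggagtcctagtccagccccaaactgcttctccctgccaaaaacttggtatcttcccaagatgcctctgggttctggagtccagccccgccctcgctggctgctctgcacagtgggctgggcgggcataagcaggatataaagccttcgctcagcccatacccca
The core was present in 5 of the 6 members with an entry, against 28.2% of all 32851 windows of this length. Cyp1a1, Cyp1b1, Tiparp and Arnt hold 1 copy each. Ahrr holds 3, and 8.63% of all windows hold 2 or more. The Ahrr window is also the one member window with the longer form TNGCGTG, which contains the core and is found in 4.1% of windows on either strand. Nqo1 has none in this window, and of the antioxidant element TGACNNNGC only Arnt has copies, namely 2, against 10.2% of windows with at least 1. These are letter matches and not sites shown to be bound.

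All 7 members passed the low-count filter of the exon columns in all 4 tables. Exon totals were 45617992 to 60214521 counts in CGR8, 17540823 to 22873893 in the SYAT time course, 19740778 to 26672402 in the sorted cells and 12236493 to 26369773 in wtSRCAP and cdSRCAP. All 8 ES cell markers passed the filter in every table, with summed levels of 1513 to 4435 CPM, the usual unit of counts scaled to library size. Of 5 hepatocyte markers, Alb and Serpina1a were at 0 in every library and the summed level stayed at or below 2.94 CPM. Summed fibroblast markers lay at 6.2 to 52 CPM, endoderm markers 3.3 to 21.3 CPM and neural markers 45 to 194 CPM, and their part in the results was not tested. Srcap RNA itself lay at 21.3 to 24.2 CPM in CGR8 and at 39.9 to 74.5 CPM in the other tables. The degron acts on the protein, so this RNA does not check the depletion.

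Per kilobase of exon, Nqo1 had the highest control level in CGR8, with a median of 19.3 CPM per kb. Arnt, at 11.1, and Tiparp, at 10.8, followed and did not separate. Cyp1a1 stood at 4.86, Cyp1b1 at 3.08, Ahr at 1.59 and Ahrr at 0.143 CPM per kb. In SYAT controls Tiparp (25.5) and Nqo1 (24.8) led and did not separate, and Cyp1a1 followed at 14.3. In the sorted controls Cyp1a1 reached a median of 45.9 CPM per kb with a range of 29.7 to 67.3, which took in that of Tiparp, at 44.4. In wtSRCAP and cdSRCAP controls Cyp1a1 came lower in the order, at 3.36 CPM per kb, beside Cyp1b1 at 3.42. Ahrr was the lowest of the 7 in every table. Since each table was scaled alone and the tables differ in line, sort and transgene, levels were tested within tables only.

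**Figure D1:**
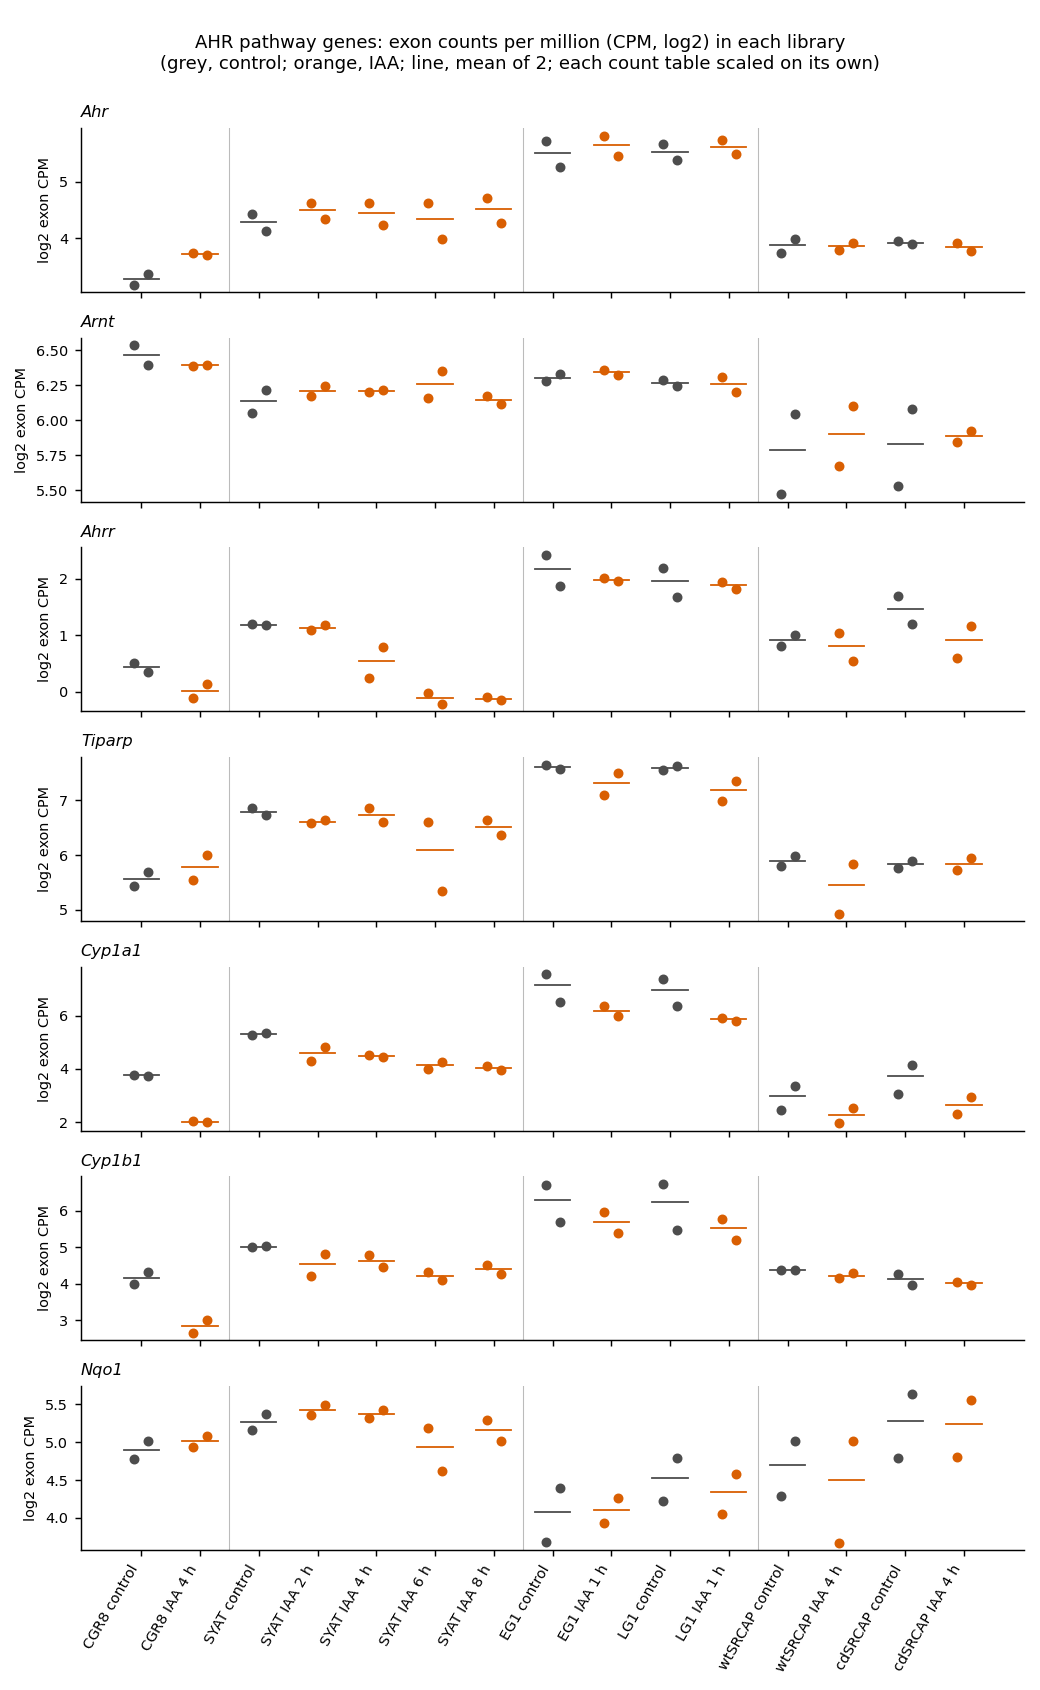
Log2 exon CPM (vertical axis) of the 7 genes in each of the 30 libraries, by group (horizontal axis). Control is in grey and IAA in orange, with a line at the log2 of the mean CPM of the 2 libraries. The Cyp1a1 mean lies lower with IAA in all 4 tables, though its points overlap in wtSRCAP. The Ahr, Arnt and Nqo1 points of control and IAA groups mostly overlap.

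In CGR8 cells, which have no degron, the 2 cytochrome P450 transcripts stood lower with IAA and not higher, though neither passed the call rule. Cyp1a1 (ENSMUSG00000032315.6, GRCm38 chr9:57687928-57703824, plus strand) was at 13.7 and 13.5 exon CPM in the controls and at 4.12 and 4.04 CPM after 4 h of IAA. The groups lie far apart and each pair of replicates nearly coincides. In bulk RNA, fewer cells with the transcript and less of it per cell cannot be told apart. The fitted IAA level was 3.32 times lower than the control level, a log2 fold change of -1.73 (SE 0.20, 95% interval -2.18 to -1.29). In edgeR's quasi-likelihood test the unadjusted p was 1.4e-05, rank 4 of 20250 genes tested, and the Benjamini-Hochberg adjusted p was 0.0711. A call needed an absolute log2 fold change above 0.5 and an adjusted p under 0.05, so Cyp1a1 was not called here. With 2 libraries against 2, a two-sided exact permutation test cannot go below 0.333, so all p-values here are from the fit over all genes.

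Cyp1b1 (ENSMUSG00000024087.4, chr17:79701537-79715061, minus strand), a relative expressed mostly outside the liver, was at 15.9 and 20.1 CPM in the controls and at 6.29 and 8.07 CPM with IAA. Its log2 fold change was -1.32 (SE 0.21, edgeR adjusted p = 0.385), rank 10 of all genes. Neither Cyp gene has a gene of the annotation overlapping it on either strand. The rule called 2 of 20250 genes in this comparison, or 0.00988%, and none of the 7 members. Both Cyp genes passed it in 4 alternative fits on all libraries, 1 without the low-count filter, 1 with DESeq2, 1 with a replicate block and 1 with DESeq2 and the block. Those fits called 386, 123, 500 and 291 genes in all. Over all 9 alternatives, which include fits with 1 library left out, the log2 fold change of Cyp1a1 ran from -1.74 to -1.13.

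The feedback repressor Ahrr (ENSMUSG00000021575.16, chr13:74211118-74292331, minus strand) was at 1.43 and 1.27 CPM in CGR8 controls and at 0.923 and 1.1 CPM with IAA. The groups do not overlap, but the interval of the log2 fold change ran from -1.38 to 0.56. Tiparp (ENSMUSG00000034640.9, chr3:65528410-65555518, plus strand), a mono-ADP-ribosyltransferase that represses AHR, was at 43 and 51.5 CPM against 46.5 and 64.3 CPM, with groups that overlap. The receptor gene Ahr (ENSMUSG00000019256.17, chr12:35497974-35535038, minus strand) was the one member whose IAA libraries both lay above the controls. It was at 9.12 and 10.4 CPM without IAA and at 13.3 and 13.1 CPM with it (log2 fold change 0.43, SE 0.18, edgeR adjusted p = 0.544). Thus 3 members were lower and 1 higher with no overlap, where 20.6% and 21.6% of all genes tested were. At an unadjusted p under 0.05 there were 3 members, against 9.16% of all genes.

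**Figure D2:**
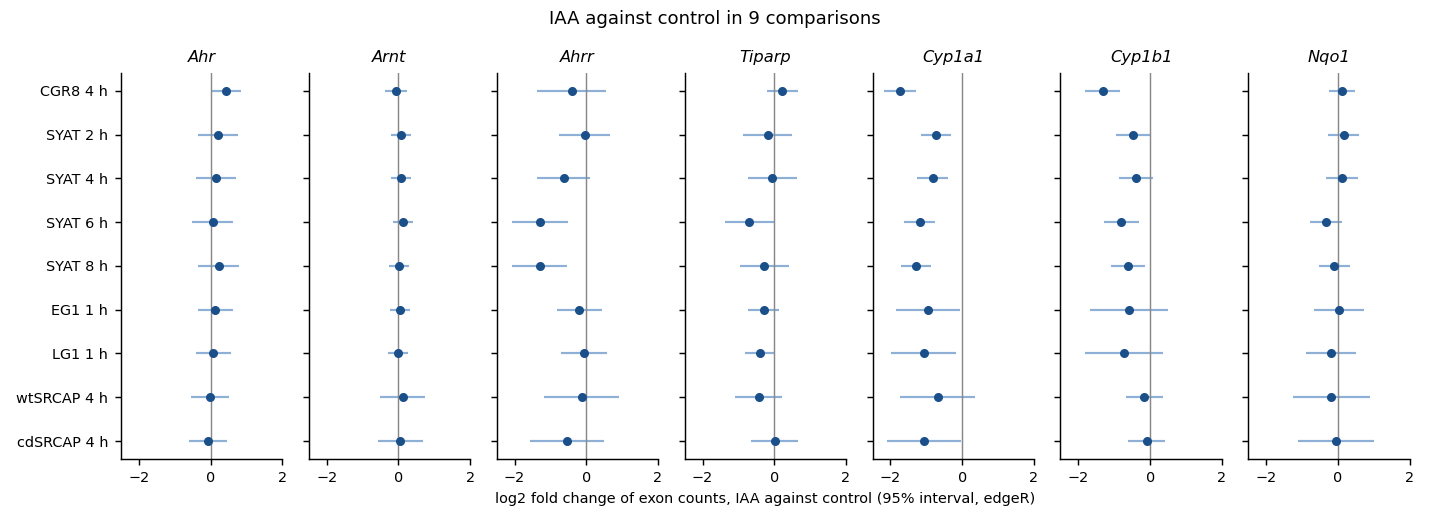
Log2 fold change of exon counts, IAA against control (horizontal axis), with the 95% interval from edgeR, for each gene (panels) in the 9 comparisons (vertical axis). Cyp1a1 and Cyp1b1 points lie left of 0 in all 9, from -1.73 to -0.69 and from -1.32 to -0.10.

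In the SYAT time course the 2 Cyp genes were also lower at each time, and Ahrr was lower from 4 h on. Cyp1a1 was at 38.9 and 40.8 CPM in the controls. With IAA it was at 19.8 and 28 CPM at 2 h, at 22.8 and 22.1 at 4 h, at 15.8 and 19.2 at 6 h, and at 17.1 and 15.5 CPM at 8 h. All 8 treated libraries lay below both controls. The log2 fold changes were -0.73 at 2 h, -0.83 at 4 h, -1.19 at 6 h (SE 0.19) and -1.29 at 8 h (SE 0.19). Their edgeR adjusted p-values were 0.877, 0.196, 0.0559 and 0.0611, with unadjusted values of 0.00319, 0.00148, 0.000109 and 5.4e-05. Among 19205 genes these were ranks 68, 142, 36 and 17.

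Cyp1b1 was at 32.2 and 32.7 CPM in the controls, at 18.5 and 27.9 at 2 h, at 27.5 and 22 at 4 h, at 19.8 and 17.1 at 6 h, and at 23.1 and 19.2 CPM at 8 h. No treated library reached a control. The largest of its log2 fold changes was -0.81 at 6 h (SE 0.22, edgeR adjusted p = 0.130). At 2, 4 and 8 h they were -0.48, -0.39 and -0.62.

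Ahrr, which competes with AHR for ARNT, was counted in few reads: 45 and 55 in the control libraries, 39 and 53 at 2 h, 22 and 41 at 4 h, 17 and 14 at 6 h, and 19 and 22 at 8 h. As CPM this is 2.28 and 2.27 in the controls, 2.13 and 2.26 at 2 h, 1.19 and 1.72 at 4 h, 0.986 and 0.86 at 6 h, and 0.93 and 0.904 at 8 h. The 2 h libraries lie just under the controls and the 6 and 8 h libraries far under them. The log2 fold changes were -0.05, -0.64, -1.29 and -1.31, and at 6 and 8 h edgeR gave adjusted p-values of 0.132 and 0.140. No annotated gene overlaps Ahrr on either strand.

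Tiparp was at 116 and 107 CPM in the controls and between 83.1 and 116 CPM in all treated libraries but 1. The second 6 h library held 40.5 CPM and the first 97 CPM, and the 6 h log2 fold change was -0.69 (edgeR adjusted p = 0.307). It was -0.19 without the second 6 h library and -1.45 without the first. The second 6 h library was also the lowest of the 10 for Nqo1, at 24.7 CPM, and for Ahr, at 15.8 CPM. Over all genes it had the lowest exon scaling factor of the 10, 0.854, and the largest share of counts in 1 gene, 10.2%. At 2, 4 and 8 h the Tiparp log2 fold changes were -0.18, -0.06 and -0.28.

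The rule called 0 of 19205 genes at 2 h (0%), 0 at 4 h (0%), 13 at 6 h (0.0677%) and 1 at 8 h (0.00521%), and no member. At an unadjusted p under 0.05 edgeR had 752, 1745, 3099 and 2606 genes at these times, or 3.92%, 9.09%, 16.1% and 13.6%, with 1, 1, 4 and 3 members among them. DESeq2 called 8, 123, 574 and 359 genes. Members lower with IAA and with no overlap numbered 4, 3, 4 and 4, where 21%, 24.1%, 22.2% and 24% of all genes did so. A joint edgeR test of any time against control gave Cyp1a1 an adjusted p of 0.161. CGR8 had IAA at 4 h only, in a separate table, so its -1.73 and the -0.83 of SYAT at 4 h are set side by side and the difference was not tested.

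**Figure D3:**
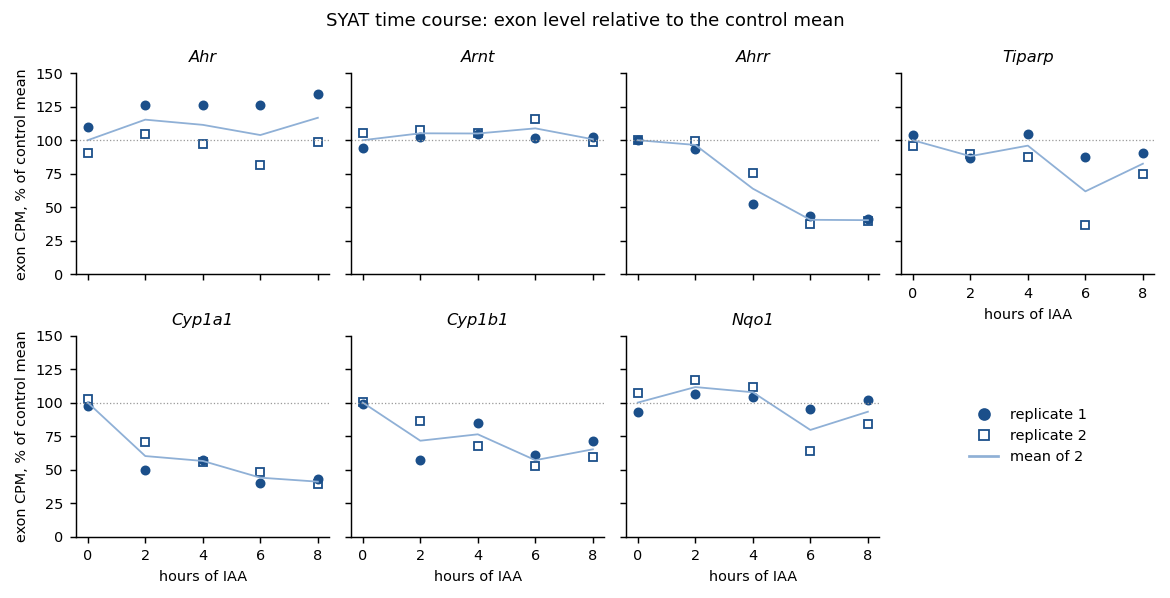
Exon CPM as a percent of the mean of the 2 control libraries (vertical axis) against hours of IAA (horizontal axis) in SYAT cells, with filled circles for replicate 1, open squares for replicate 2 and a line at their mean. At 8 h Cyp1a1 and Ahrr stand near 40% and Cyp1b1 higher, while Arnt stays near 100% throughout.

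In sorted G1 cells, Cyp1a1 fell within 1 h of IAA in both windows. In EG1 it was at 188 and 92.2 CPM in the controls and at 81.1 and 63.5 CPM with IAA, and in LG1 at 164 and 82.8 CPM against 60.8 and 55.9 CPM. Every treated library lay below every control of its window, and the first control of each window was about as far above the second as the group means are apart. The log2 fold changes were -0.95 in EG1 (SE 0.39, 95% interval -1.85 to -0.056, unadjusted edgeR p of 0.0399) and -1.08 in LG1 (SE 0.39, -1.98 to -0.18, unadjusted p of 0.0249). For these cells the study's rule was an absolute log2 fold change above 0.25 and an unadjusted p under 0.05. It called 257 of 21020 genes in EG1 (1.22%) and 214 in LG1 (1.02%), with Cyp1a1 as the 1 member in each. The adjusted p of Cyp1a1 was above 0.99 in both in this fit, which did not pair the replicates. The calls of this fit thus rest on the unadjusted rule.

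Without the first EG1 control library the EG1 fold change was -0.34, and without the first LG1 control library that of LG1 was -0.50, neither of them called. The calls were also lost without either IAA library of the window, and in EG1 without either LG1 IAA library. In these cells same-numbered libraries deviated together, and with the replicate number as a block the Cyp1a1 values were -0.89 in EG1 (edgeR adjusted p = 0.0454) and -1.003 in LG1 (adjusted p = 0.0408).

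Cyp1b1 followed the same split between replicates, with 105 and 51.7 CPM in EG1 controls against 62.1 and 42 CPM, and 107 and 44.3 CPM in LG1 controls against 54.7 and 37 CPM. The groups overlap in both windows. Its log2 fold changes of -0.59 and -0.72 did not pass in the filtered fit without the block, with unadjusted edgeR p-values of 0.241 and 0.165, and passed without the filter. With the block they were -0.54 and -0.64, with unadjusted p-values of 0.000231 and 4.64e-05 and adjusted ones of 0.205 and 0.1000, and passed the study's rule. Tiparp was at 202 and 190 CPM in EG1 controls against 138 and 181 CPM, and at 189 and 197 CPM in LG1 controls against 128 and 165 CPM. Its log2 fold changes were -0.29 and -0.40, which did not pass in the filtered fit without the block. Without the filter the LG1 value passed. With the block both passed, at -0.31 and -0.41, with unadjusted p-values of 0.00335 and 0.000299 and adjusted ones of 0.369 and 0.230. With the block the members called were thus 3 in each window, and that fit called 6.04% of all genes in EG1 and 4.2% in LG1. Members lower with no overlap were 2 in each, Cyp1a1 and Tiparp, against 13.4% and 10.4% of all genes.

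In exons the response to IAA was not shown to differ between LG1 and EG1. For Cyp1a1 the LG1 response minus the EG1 response was -0.12 (95% interval -1.38 to 1.14) and for Cyp1b1 it was -0.13 (-1.65 to 1.40). With the block these differences were -0.11 and -0.10, at unadjusted edgeR p-values of 0.592 and 0.554. Control levels were also compared between the windows. Nqo1 alone passed in any fit on all libraries, and not in the one without the block reported here. It was at 12.8 and 21.1 CPM in EG1 and at 18.7 and 27.6 CPM in LG1, a log2 difference of 0.45, which was 0.46 with the block (edgeR adjusted p = 0.0179). The study's rule called 1.44% of genes between the windows without the block and 7.31% with it.

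In the transgenic lines, Cyp1a1 was the member with the lowest fold change. It was at 5.44 and 10.3 CPM in wtSRCAP controls against 3.9 and 5.79 CPM with IAA, where the groups overlap. In cdSRCAP it was at 8.44 and 17.8 CPM against 4.97 and 7.62 CPM, where they do not. The log2 fold changes were -0.69 (SE 0.47, edgeR adjusted p = 0.787) and -1.07 (SE 0.46, adjusted p = 0.872). Libraries with the same number deviated together here too, and with the block the cdSRCAP value was -1.01 with an adjusted p of 0.0471, a call in a fit that called 1.81% of genes, and the wtSRCAP value -0.68 with an adjusted p of 0.188. Without the second control library the 2 values were -0.14 in wtSRCAP and -0.40 in cdSRCAP.

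The cdSRCAP response minus the wtSRCAP response of Cyp1a1 was -0.38 (95% interval -1.84 to 1.08). With the block this difference was -0.33, at an unadjusted edgeR p of 0.393. Thus no difference between the catalytically dead and the wild-type transgene was detectable with 2 libraries a group. Cyp1b1 was at 21 and 20.8 CPM in wtSRCAP controls against 17.9 and 19.6 CPM, and at 19.1 and 15.6 CPM in cdSRCAP controls against 16.7 and 15.7 CPM. Its log2 fold changes were -0.16 and -0.10. The rule called 1 of 19111 genes in wtSRCAP (0.00523%) and 0 in cdSRCAP (0%), where edgeR had 1077 genes at an unadjusted p under 0.05 and DESeq2 called 7. Members lower with no overlap were 1 in wtSRCAP and 2 in cdSRCAP, against 19.5% and 19% of all genes. Tiparp was at 30.5 and 57.5 CPM in the 2 wtSRCAP IAA libraries, of which the first is the shallowest of the table.

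The receptor, its partner and the quinone reductase were not called in the exons of any IAA comparison. Ahr log2 fold changes ran from -0.07 to 0.43 over the 9 comparisons and the widest bounds of their 95% intervals were -0.60 and 0.85. Ahr is overlapped on the other strand by the lincRNA gene Gm48236, and the strand setting of the counting is not given in the sources used here. Arnt (ENSMUSG00000015522.18, chr3:95434388-95497240, plus strand), which also serves the hypoxia factors, ran from -0.08 to 0.12, with interval bounds of -0.57 and 0.75. A processed pseudogene, Gm42672, lies within Arnt. Nqo1 (ENSMUSG00000003849.8, chr8:107388225-107403206, minus strand) ran from -0.33 to 0.16, with bounds of -1.25 and 1.02. With 1 library left out at a time its fold changes reached -0.99 and 0.47. No Arnt or Nqo1 comparison had groups that did not overlap. Ahrr outside CGR8 and the time course ran from -0.54 to -0.07.

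Counted over the 9 comparisons, IAA went with a log2 fold change below 0 in 9 for Cyp1a1, 9 for Cyp1b1, 9 for Ahrr, 7 for Tiparp, 5 for Nqo1, 2 for Arnt and 2 for Ahr. The IAA libraries lay wholly below the controls in 8, 6, 6, 5, 0, 0 and 0 of them, and wholly above in 1, for Ahr in CGR8. Of all genes tested, 10.4% (LG1) to 24.1% (SYAT at 4 h) lay wholly below in a given comparison, and 21.6% wholly above in CGR8. The 4 time course comparisons share their 2 control libraries. Medians over all genes lay within 0.031 of 0 in each comparison. No member passed the rule upward in the exon columns of any IAA comparison.

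The intron columns, meant to count unspliced RNA, could be read for part of the genes only. In the SYAT time course Cyp1a1 and Ahrr had 0 intron counts in all 10 libraries, and in EG1 Ahrr had 0 in all 4. A count of 0 allows up to 3 counts, or 0.108 to 0.18 CPM in the time course, for counting error only. In those same libraries Cyp1a1 had 272 to 987 exon counts. In these 2 sets 35.4% to 48.2% of single-exon genes had intron counts and the intron total was 1.00 to 1.23 times the exon total. In CGR8, LG1 and the transgenic lines hardly any single-exon gene had any, and the ratio was 0.0855 to 0.358. The intron columns of the time course and EG1 therefore hold exon reads of some genes. Cyp1a1 and Ahrr, at 0 in the time course, show that this does not hold for every gene. Values of these intron columns were not taken as independent of the exon columns.

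In LG1 introns Ahrr fell from 39.6 and 39.9 CPM to 21.2 and 22.6 CPM (log2 fold change -0.86, SE 0.22, unadjusted edgeR p of 0.0101) and Cyp1b1 from 31.5 and 23.4 CPM to 15.7 and 13.9 CPM (-0.89, SE 0.35, unadjusted p of 0.0391). Both pass the study's rule for sorted cells, which called 3.94% of genes there. That fit took its scaling and spread from the EG1 intron columns too, which hold exon reads of some genes. Cyp1a1 introns in LG1 were at 46.9 and 37.3 CPM against 25 and 24.1 CPM, with no overlap, but the unadjusted p was 0.318. In EG1 the Cyp1a1 intron column fell from 135 and 38.5 CPM to 16.2 and 4.05 CPM (-3.10, SE 0.77, unadjusted edgeR p of 0.00479), where 2.28% of genes were called. With 1 library left out at a time this ran from -4.42, without the first EG1 IAA library, to -1.89, without the first EG1 control. In EG1 controls Cyp1a1 had 898 to 3894 intron counts beside 2334 to 5399 exon counts, and with IAA 81 to 326 beside 1409 to 1719. Each intron count was below the exon count of its library. Subtracting the exon column, with negative values set to 0, thus left none by construction. The Cyp1a1 intron response in LG1 minus that in EG1 was 2.32 (unadjusted edgeR p of 0.0575), and with the block 2.36 (unadjusted p of 0.0181), a call, as it was with no filter and with DESeq2. The fit with the block called 3.44% of genes. The EG1 intron columns hold exon reads of part of the genes, but not all those of Cyp1a1. How they were made is not known, so they were not taken as comparable with those of LG1. In CGR8 introns Cyp1b1 was at 9.28 and 6.73 CPM against 3.29 and 2.56 CPM (-1.45, edgeR adjusted p = 0.925), from 19 to 46 counts a library. Cyp1a1 introns in CGR8 had 9 and 1 counts in controls and 11 and 9 with IAA, too few to compare. No other member was called in introns in an IAA comparison, where the rule took 0.022% of genes in CGR8, 0%, 0%, 0.0136% and 0.00679% in the time course and 0.299% and 0.236% in wtSRCAP and cdSRCAP. With the block Cyp1b1 was called in EG1 introns too, at -0.52 with an unadjusted p of 0.028, and that fit called 4.32% of genes. Introns of Ahr ran from -0.88, in wtSRCAP where the first IAA library held 5 counts, to 0.26, of Arnt from -0.17 to 0.24, of Nqo1 from -0.55 to 0.18 and of Tiparp from -0.64 to 0.18.

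Around the 7 members, 4 lists of related genes were counted, and in exons none held a called gene in any of the 9 IAA comparisons. Of 12 further genes of the AHR battery, 5 to 6 were tested, with medians from -0.04 to 0.46. Of 13 other bHLH-PAS factors 10 to 13 were tested (-0.10 to 0.17), of 11 genes of tryptophan breakdown 6 to 8 (-0.42 to 0.24), and of 8 NRF2 targets other than Nqo1 7 to 8 (-0.23 to 0.23). Summed over the comparisons, edgeR gave an unadjusted p under 0.05 in 2 of 50, 13 of 99, 2 of 62 and 6 of 70 tests in these lists, against 7.34% of the tests over all genes.

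At 6 h in SYAT the listed genes to name were set by size of change. The battery gene Cyp1a2, the liver sister of Cyp1a1, was at a log2 fold change of 0.82. Nedd9, a scaffold protein, was at -0.84. No tested battery gene had an unadjusted edgeR p under 0.05 there. Among bHLH-PAS factors Sim1 was at 1.61 (edgeR adjusted p = 0.108) and the hypoxia factor Epas1 at 0.84 (adjusted p = 0.170). Kynureninase (Kynu) was at 1.19 and Ido2 at 0.55, and the NRF2 targets Srxn1 at -0.46 and Txnrd1 at 0.36. No tested gene of tryptophan breakdown had an unadjusted edgeR p under 0.05 at 6 h, and 2 of 8 NRF2 targets did. In introns 1 listed gene was called, Epas1 in wtSRCAP, which rose by 1.01 (edgeR adjusted p = 0.0275).

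**Figure D4:**
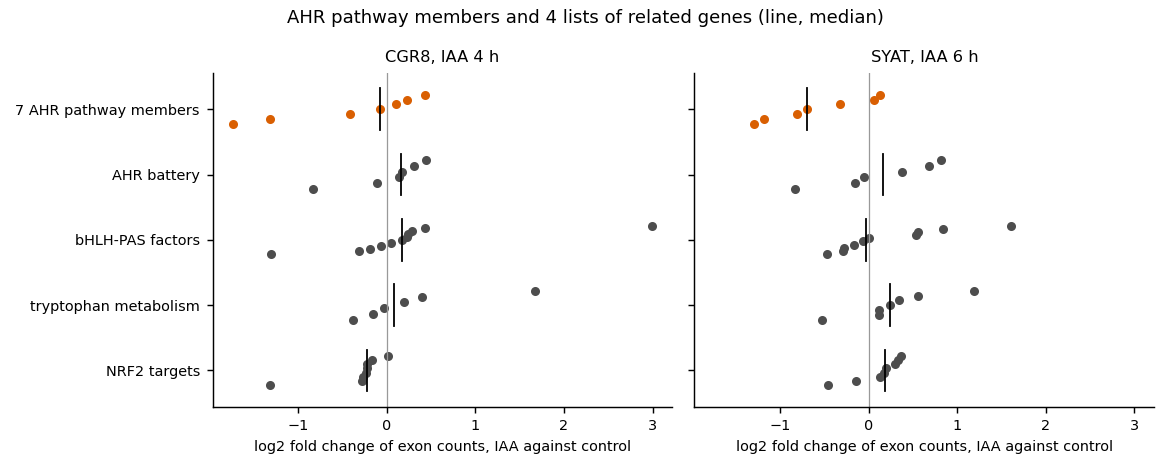
Log2 fold change of exon counts, IAA against control (horizontal axis), of the 7 members (orange) and of the tested genes of the 4 lists (grey) in CGR8 at 4 h and SYAT at 6 h, with a line at each median. The lowest member points are Cyp1a1 in CGR8, at -1.73, and Ahrr in SYAT, at -1.29.

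The 10 SYAT time course libraries come from 1 tagged clone and share 1 sequencing table. Across them, the genes whose log2 CPM tracked Cyp1a1 most closely were Ppih (Pearson's r = 0.971), Mbd1 (0.957) and Zfp286 (0.956). Among members, Cyp1a1 was closest to Cyp1b1 (0.863) and then to Ahrr (0.803). The closest genes for the others were Chmp1b for Cyp1b1 (0.952), Txndc16 for Ahrr (0.982), Olfml2b for Tiparp (0.994), Colec12 for Ahr (0.985), Fiz1 for Arnt (0.947) and Ercc6l for Nqo1 (0.970). These are the highest values over 19205 genes and are given as a description.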

How the data were processed

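Nuclear RNA-seq counts of 30 libraries were used as deposited. The authors aligned the reads with STAR to mm10 and made counts with featureCounts on GENCODE vM25, for exons and, as gene body minus exons, for introns. The library kit marks strand. Deposited tables of the authors' own fold changes and p-values were not used. Columns were assigned to libraries by name, and genes were named from GENCODE release 21.

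Each table was fitted whole with edgeR 4.0.16 in R 4.3.3 (TMM scaling, filterByExpr with a minimum count of 10 and minimum total of 15, quasi-likelihood F test, Benjamini-Hochberg over all genes), with no block. CPM are TMM-scaled. Calls needed an absolute log2 fold change above 0.5 and an adjusted p under 0.05, or, in sorted cells, above 0.25 and an unadjusted p under 0.05, after the study's thresholds. The standard error is the fold change over the root of F. Scripts were tested on simulated data. The alternatives were DESeq2 1.42.0, its size factors, no filter, a replicate block, fits on the libraries compared and each library left out.

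Same-numbered libraries correlated in their deviations from the group means at 0.372 to 0.586 in sorted exons, 0.141 to 0.638 in sorted introns and 0.259 to 0.376 in the exons of the transgenic lines, and were taken as pairs there. They did not all do so elsewhere (CGR8 exons, SYAT time course and transgenic introns). The members, lists and rules were chosen with earlier results of these data known. All 7 members are named; from each list the 2 genes with the largest absolute change at 6 h in SYAT exons and any called gene are named, and for each member the 3 genes most correlated over the time course were found. A further list was fixed and is not reported here. Per the study's methods, the duplicates are biological, from separately grown and treated cells. Counting error alone underlies the limits given for counts of 0.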

Additional observations from a re-analysis of the deposited data

How the results depend on the processing

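Duplicates limited the tests. In the CGR8, SYAT and transgenic tables the rule left few genes, and the number called depended on how the spread was estimated. Over all genes, the exon calls for IAA in CGR8 were 2, against 386 with no filter on low counts, 123 with DESeq2, 500 with a replicate block in edgeR and 291 with DESeq2 and the block. In SYAT at 2, 4, 6 and 8 h they were 0, 0, 13 and 1, against 8, 88, 885 and 448 with no filter, 8, 123, 574 and 359 with DESeq2, 0, 76, 823 and 634 with the block, 31, 330, 1074 and 693 with DESeq2 and the block, and 0, 4, 0 and 0 on the 4 libraries compared. In EG1 and LG1 they were 257 and 214, against 626 and 372 with no filter, 147 and 83 with DESeq2, 1269 and 883 with the block, 156 and 126 with DESeq2 and the block, and 274 and 79 on the 4 libraries. In wtSRCAP and cdSRCAP they were 1 and 0, against 20 and 10, 14 and 7, 612 and 345, 676 and 430, and 0 and 0 in the same order. DESeq2 size factors in edgeR left every one of these exon counts within 1.5 times. Intron calls moved likewise, in CGR8 from 3 to between 4 and 137 and in SYAT at 6 h from 2 to between 0 and 723.

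Percentages in this paragraph are shares of all genes tested that the same fit called. Among the members, CGR8 exons had 0 calls. There were 2, Cyp1a1 and Cyp1b1, with no filter (1.26%), DESeq2 (0.4%), the replicate block (2.47%) and DESeq2 with the block (0.946%). SYAT exons at 6 h had 0, and 3 with no filter (2.47%), 2 with DESeq2 (1.6%), 1 with the block (4.29%) and 3 with both (2.99%). At 8 h Cyp1a1 was the 1 call in each of these 4 settings (1.25%, 1.0%, 3.3% and 1.93%). At 4 h it was the 1 call with DESeq2 with the block (0.92%) and without it (0.343%). For any time it was the 1 call with no filter, with DESeq2 and with the block, where the share of all genes is not given. SYAT introns at 6 h gained 1, Cyp1b1, with DESeq2 and the block (3.22%). EG1 exons had 1 call (1.22%), and 2 with no filter (1.7%), 3 with the block (6.04%) and 2 with DESeq2 and the block (0.424%). LG1 exons had 1 (1.02%), and 3 in each of those settings (1.01%, 4.2% and 0.342%). LG1 against EG1 control exons had 0, and 1, Nqo1, in each (1.58%, 7.31% and 1.36%). EG1 introns had 1 (2.28%), and 2 with the block (4.32%) and 3 with DESeq2 and the block (3.22%). The intron difference between the LG1 and EG1 responses had 0, and 1, Cyp1a1, with no filter (1.93%), with DESeq2 (1.14%) and with the block (3.44%). Its log2 value with the block was 2.36. The cdSRCAP exons had 0, and 1 with the block, in edgeR (1.81%) and in DESeq2 (1.3%). The pairing by number was not borne out in CGR8, where the correlation was 0.0736, in the SYAT time course (-0.0359 to 0.589) or in transgenic introns (0.0759 to 0.296), so the blocked values there describe a shared number only. The block changed no other member call.

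With 1 library left out at a time, a lone library borrows the spread of the other groups. Member calls were gained and lost in such fits, and their numbers are not given, since such calls lean on that spread. The fit without the first 6 h library kept the library lowest for Tiparp, Nqo1 and Ahr as the sole 6 h library. With 1 library left out, Tiparp exons at 6 h in SYAT ran from -1.45 to -0.19 and those of Nqo1 from -0.64 to -0.071. In LG1 introns Cyp1b1 lost its call without the first LG1 control or either LG1 IAA library. Directions turned in these ranges: Cyp1b1 in EG1 from -1.01 to 0.026, above 0 without the first EG1 control, and in LG1 from -1.22 to 0.052, above 0 without the first LG1 control. Cyp1a1 in LG1 against EG1 controls ran from -0.76 to 0.40, its LG1 minus EG1 response from -0.73 to 0.45 and its cdSRCAP minus wtSRCAP response from -0.92 to 0.29. Cyp1b1 in cdSRCAP ran from -0.22 to 0.049, above 0 without the first cdSRCAP control. The highest Ahrr fold change over the sorted and transgenic comparisons ran from -0.13 to 0.21. Cyp1a1 exons stayed below 0 in every alternative of all 9 IAA comparisons. The cause of these shifts was not tested.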
